A study of Mus musculus with 8 samples.

Results

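The hypoxia-inducible factor (HIF) pathway was followed here through 10 genes: the transcription factor subunits *Hif1a*, *Epas1* and *Arnt*, the oxygen sensors *Egln1* and *Egln3*, and the hypoxia targets outside glycolysis *Vegfa*, *Bnip3*, *Ndrg1*, *Adm* and *Ankrd37*. They were chosen by role from a longer hypoxia list after its difference between these same libraries had been seen. Their fold changes in this comparison are therefore a description and carry no p-value. Whether one of them passed the threshold used for all genes is likewise a description and not a test. Of the 10 genes, 9 were in the table of 21950 counted genes, and *Ankrd37* is described only by its promoter.

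The libraries came from mouse germ cells made in culture and from germ cells of the embryo. Day 6 primordial germ cell-like cells (d6PGCLCs) were derived from 1 female induced pluripotent stem cell line with the Blimp1-Venus and Stella-ECFP reporters (BVSC-iPSC), by way of epiblast-like cells and culture with BMP4, SCF, LIF and EGF, and were sorted as positive for both reporters at day 8 of the culture. Primordial germ cells (PGCs) without these reporters were sorted as positive for SSEA1 and integrin β3 from pooled gonads of female C57BL/6J embryos at E12.5. Each group held 4 pools from independent experiments, and each pool gave 1 poly(A) RNA library. The cell line, its genetic background, the developmental stage, the culture and the sort differed together between the groups and cannot be told apart, and the oxygen tension of the culture is not given in the sources used here.

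Counted reads per library ranged from 7991437 to 12024841, so that 3 counts, up to which a gene was taken as not detected in a library, corresponded to between 0.249 and 0.375 CPM, the unit of level used throughout (counts divided by the size of their library, on a common scale). Such limits cover counting error only. All 10 germ cell markers had more than 3 counts in every library. Between the groups, 5 of the 10 were called higher in d6PGCLCs and 3 lower. The higher ones were *Dppa3*, *Prdm1*, *Prdm14*, *Tfap2c* and *Pou5f1*. Their log2 fold changes, d6PGCLC over E12.5 PGC, ran from 0.65 (*Tfap2c*) to 1.21 (*Prdm1*). The lower ones were *Dnd1* (-0.59), *Dazl* (-5.07) and *Ddx4* (-4.42). The germ cell RNA-binding protein genes *Dazl* and *Ddx4*, which rise in PGCs once they are in the gonad, were at 37.7 ± 23.2 and 35.5 ± 6.60 CPM in d6PGCLCs and at 1262 ± 241.1 and 760.4 ± 92.2 CPM in E12.5 PGCs. The summed level of 9 markers of gonadal somatic cells was 6.72 to 8.81 CPM in d6PGCLCs and 8.48 to 15.2 CPM in E12.5 PGCs. Most of the sum in each d6PGCLC library was *Star*, which was not called, at 6.91 ± 0.728 CPM there and 5.71 ± 0.654 CPM in PGCs. In d6PGCLC libraries 7 of the 9 never exceeded 3 counts, and 4 of the 9 were called lower there. E12.5 PGC replicate 2 stood apart, with the highest somatic sum of its group and, for all 18 genes of a list of dissociation-response genes, the highest level of the 4 PGC libraries. The median level of that list was 93.6 CPM in this library and 22.4 to 25.4 CPM in the other PGC libraries, and results which rest on it are also given without it. In d6PGCLCs this median was 38.4 to 54.5 CPM, and between the groups 4 of the 18 were called higher and 9 lower. In bulk RNA, fewer cells that express a gene and less RNA per cell cannot be told apart.

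HIF is a heterodimer of an alpha subunit and the constant partner ARNT. In the presence of oxygen, prolyl hydroxylases of the EGLN (PHD) family modify the alpha subunit, the VHL ubiquitin ligase binds it and the protein is degraded. When oxygen is scarce the alpha subunit accumulates, enters the nucleus and binds hypoxia response elements, whose core is A or G followed by CGTG. Because the alpha subunits are controlled mainly as proteins, the transcript counts measured here give no reading of HIF protein or of its activity.

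Promoter windows of 250 bases before to 50 bases after a RefSeq start site (GRCm38.p6) were searched on both strands for ACGTG and GCGTG. The reference tables held 9 windows for 8 of the 10 genes, 2 of them for *Vegfa*, and none for *Epas1* and *Ndrg1*. ACGTG was found in 6 of the 9 windows, against 19.62% of 32851 windows of all genes, GCGTG in 6 of 9 against 32.39%, and either in 8 of 9 against 43.77%. The windows of these genes were richer in GC, with a median of 62.0% against 52.67%, and the part of base composition in the counts was not tested. In the lists described below, with a median GC of 63.33% to 64.5%, either word was also common. It was in 33 of 42 windows of the other targets, 23 of 29 of glycolysis and 8 of 14 of the HIF machinery. A match is a description of letters and not evidence of binding. The following 4 stretches are shown because they hold ACGTG upstream of 2 genes that were higher in d6PGCLCs (*Bnip3*, *Egln3*), 1 that did not pass the threshold (*Egln1*) and 1 that was lower (*Hif1a*). Each is written 5′ to 3′ on the strand of its gene, with matches to either word or its reverse complement in capitals.
*Bnip3*, minus strand, chr7:138909581-138909641: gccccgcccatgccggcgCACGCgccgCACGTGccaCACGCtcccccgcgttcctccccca
*Egln3*, minus strand, chr12:54204071-54204124: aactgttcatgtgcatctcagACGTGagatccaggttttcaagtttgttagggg
*Egln1*, minus strand, chr8:124949290-124949350: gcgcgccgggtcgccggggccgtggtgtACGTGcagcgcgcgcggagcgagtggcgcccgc
*Hif1a*, plus strand, chr12:73907769-73907829: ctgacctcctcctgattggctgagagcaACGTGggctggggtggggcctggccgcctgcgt
In *Bnip3* the ACGTG match began 107 bases before the start site and lay within the palindrome CACGTG, which reads as ACGTG on both strands and is also the core of the E-box bound by other basic helix-loop-helix factors. The same palindrome stood in the *Hif1a* window outside the stretch shown, and the ACGTG that is shown began 70 bases before the start site used, which lies inside the gene and not at its outermost start. The *Egln1* match began 68 bases and the *Egln3* match 229 bases before the start. *Ankrd37*, a target gene for an ankyrin repeat protein, had an ACGTG 6 bases before its start and a second one 241 bases before it. In *Adm* and *Arnt* GCGTG alone was found. The window at the outermost start of *Vegfa* held neither word, and its second window, at an internal start, held 1 of each. For this window and that of *Hif1a*, the closing bases were not found in any GENCODE M21 transcript of the gene. For the other windows they were.

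Of the HIF subunits, the 2 alpha subunits differed between the groups in opposite directions while their shared partner did not pass the threshold. *Hif1a* (Entrez 15251, chr12:73901324-73947554 in GRCm38), which encodes the broadly expressed HIF-1α, stood at 200.0, 186.3, 194.4 and 186.1 CPM in d6PGCLC replicates 1 to 4 and at 330.1, 261.1, 302.2 and 268.6 CPM in E12.5 PGC replicates 1 to 4. Every d6PGCLC library was below every E12.5 PGC library. The means were 191.7 ± 6.76 and 290.5 ± 31.9 CPM (SD, n = 4 libraries each). On the log2 scale the fold change, d6PGCLC over E12.5 PGC, was -0.60 with a standard error of 0.09 and a 95% interval from -0.78 to -0.42.

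*Epas1* (Entrez 13819, chr17:86753864-86833410), which encodes HIF-2α, an alpha subunit best known from endothelium and other specialised cell types, stood at 38.9, 33.3, 34.9 and 39.9 CPM in d6PGCLCs and at 17.2, 14.5, 16.0 and 15.6 CPM in E12.5 PGCs. Every d6PGCLC library lay above every PGC library. The means were 36.8 ± 3.15 and 15.8 ± 1.11 CPM, and the log2 fold change was 1.21 (standard error 0.13, interval 0.95 to 1.48). *Arnt* (Entrez 11863, chr3:95434367-95497240) was at 84.4, 57.6, 67.0 and 64.6 CPM in d6PGCLCs and at 69.6, 69.6, 63.1 and 68.1 CPM in E12.5 PGCs. The groups overlapped, and the interval of the log2 fold change of 0.02 reached from -0.21 to 0.24.

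Levels of different genes were set side by side per length, as CPM divided by the deposited exonic length in kilobases (RPKM). On this scale *Hif1a* exceeded *Epas1* in all 8 libraries. The ratio of *Hif1a* to *Epas1* was 5.74, 6.25, 6.22 and 5.21 in d6PGCLC replicates 1 to 4 and 21.4, 20.1, 21.2 and 19.2 in the PGC libraries, with no overlap. *Epas1* thus made up 14.6 ± 1.08% of the summed RPKM of both alpha subunits in d6PGCLCs and 4.67 ± 0.224% in E12.5 PGCs. The sum itself was 41.9 ± 1.47 RPKM in d6PGCLCs and 56.8 ± 6.12 RPKM in E12.5 PGCs, lower in every d6PGCLC library. The summed level of 8 markers of endothelium was 76.5 to 100.1 CPM in d6PGCLCs and 40.4 to 67.2 CPM in PGCs, and *Egfl7*, which made up most of the difference at 43.6 ± 7.54 against 10.6 ± 2.01 CPM, and *Cdh5* were called higher. The other 6 did not pass, and of the defining markers *Kdr* never exceeded 3 counts in a d6PGCLC library and *Emcn* was at 0 there. The part of endothelial RNA in the *Epas1* difference was not tested.

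The oxygen sensors diverged from one another. *Egln3* (Entrez 112407, chr12:54178981-54203874), encoding the prolyl hydroxylase PHD3, which is itself a classical HIF target, was at 218.8, 196.5, 203.6 and 242.8 CPM in d6PGCLCs and at 111.8, 111.5, 94.5 and 111.9 CPM in E12.5 PGCs. The d6PGCLC libraries were all above the PGC libraries. Means of 215.4 ± 20.5 and 107.4 ± 8.62 CPM gave a log2 fold change of 1.00 (standard error 0.10, interval 0.82 to 1.19). *Egln1* (Entrez 112405, chr8:124908587-124949254), encoding PHD2, the main sensor in most cells, was at 88.5, 60.5, 41.4 and 62.4 CPM in d6PGCLCs and at 70.2, 56.4, 63.4 and 59.9 CPM in PGCs. Its d6PGCLC values spread on both sides of the PGC values, and the log2 fold change of 0.01 had an interval from -0.30 to 0.32, which holds differences in either direction.

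Within a library, *Egln3* exceeded *Egln1* by RPKM in every case. The ratio was 3.20, 4.21, 6.37 and 5.04 in d6PGCLCs and 2.06, 2.56, 1.93 and 2.42 in E12.5 PGCs, so that the groups did not overlap. The spread in d6PGCLCs came with the spread of *Egln1*, whose lowest library, replicate 3, had the highest ratio. Together with *Egln2*, the other prolyl hydroxylase of HIF in the family, the summed RPKM was 128.9 ± 9.37 in d6PGCLCs and 107.8 ± 2.88 in PGCs, of which *Egln3* took 58.1 ± 2.55% and 34.7 ± 2.85%. The sum and shares depend on the isoforms counted. That of *Egln2* had 1288 bases, against 2107 for its longest GENCODE M21 transcript.

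**Figure D1:**
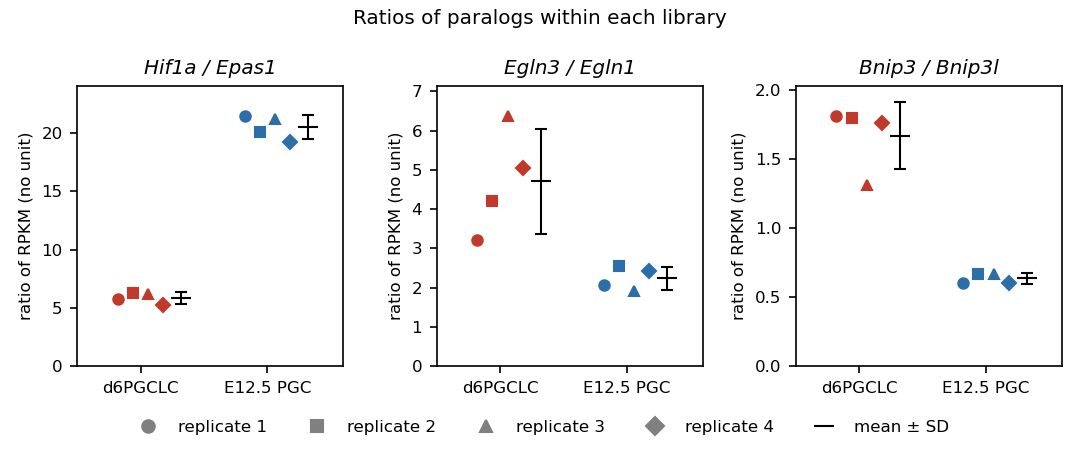
Ratio of the RPKM of 2 related genes (vertical axes, no unit, from 0) in each of the 4 d6PGCLC and 4 E12.5 PGC libraries, with 1 symbol per replicate number and the mean ± SD beside them. *Hif1a* over *Epas1* was lower in every d6PGCLC library (at most 6.25, against at least 19.2), and *Egln3* over *Egln1* and *Bnip3* over *Bnip3l* were higher in every d6PGCLC library.

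Among the targets, *Vegfa* had the largest difference. *Vegfa* (Entrez 22339, chr17:46016993-46032377), which encodes the angiogenic growth factor VEGF-A, stood at 243.8, 228.1, 251.3 and 234.3 CPM in d6PGCLCs and at 40.8, 58.4, 42.0 and 50.5 CPM in E12.5 PGCs. The lowest d6PGCLC library was far above the highest PGC library, which was replicate 2. The means were 239.4 ± 10.2 and 47.9 ± 8.22 CPM, and the log2 fold change was 2.32 (standard error 0.11, interval 2.11 to 2.53). Leaving out any one library kept it between 2.25 and 2.43. Its receptor gene *Flt1*, counted among the other targets below, was added here after its values were seen. It was scarce, with counts of 62, 34, 32 and 22 in d6PGCLCs and 3, 5, 2 and 3 in PGCs. The levels were 4.17 ± 2.52 against 0.339 ± 0.147 CPM, whereas *Kdr*, the other VEGF-A receptor, was at 0.107 ± 0.101 and 0.220 ± 0.298 CPM.

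*Bnip3* (Entrez 12176, chr7:138890836-138909506), encoding a mitochondrial receptor for mitophagy, was at 98.4, 119.0, 88.9 and 121.3 CPM in d6PGCLCs and at 47.8, 46.8, 50.7 and 49.5 CPM in E12.5 PGCs. All d6PGCLC values lay above all PGC values. The means of 106.9 ± 15.8 and 48.7 ± 1.73 CPM gave a log2 fold change of 1.13 (standard error 0.11, interval 0.92 to 1.35). Its paralog *Bnip3l* (NIX), also a mitophagy receptor and a HIF target, was at 114.9 ± 12.1 and 137.0 ± 9.69 CPM, with a log2 fold change of -0.25 that did not pass the threshold (adjusted p = 0.0561, quasi-likelihood test). By RPKM *Bnip3* was above *Bnip3l* in all 4 d6PGCLC libraries, at ratios of 1.81, 1.80, 1.31 and 1.76, and below it in all 4 PGC libraries, at 0.603, 0.671, 0.669 and 0.599.

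The remaining 2 targets were scarce. *Ndrg1* (Entrez 17988, chr15:66929318-66969641), a stress-response gene, had counts of 85, 38, 35 and 40 in the d6PGCLC libraries and 14, 17, 20 and 11 in the PGC libraries, which is 10.8, 3.87, 2.90 and 4.85 CPM against 1.75, 1.79, 1.84 and 0.993 CPM. The groups did not overlap, although the level in d6PGCLC replicate 1 stood far above those of the other 3. The log2 fold change of 1.79 (standard error 0.38, interval 1.05 to 2.53) was between 1.27 and 2.02 with each library left out. *Adm* (Entrez 11535, chr7:110627657-110629820), encoding the vasodilator peptide adrenomedullin, had counts of 4, 3, 7 and 9 in d6PGCLCs and 12, 36, 16 and 10 in PGCs, or 0.511, 0.305, 0.581 and 1.09 CPM against 1.50, 3.79, 1.48 and 0.903 CPM. The groups overlapped, and the highest value was that of E12.5 PGC replicate 2. The log2 fold change was -1.62 (standard error 0.51, interval -2.62 to -0.62). It was -1.05 without that library and -1.40 without d6PGCLC replicate 2, and in both cases no longer passed the threshold. The library with the most *Adm* was also the one with the highest somatic marker sum (15.2 CPM) and the highest dissociation-response genes of its group, and the part of either in the difference was not tested.

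**Figure D2:**
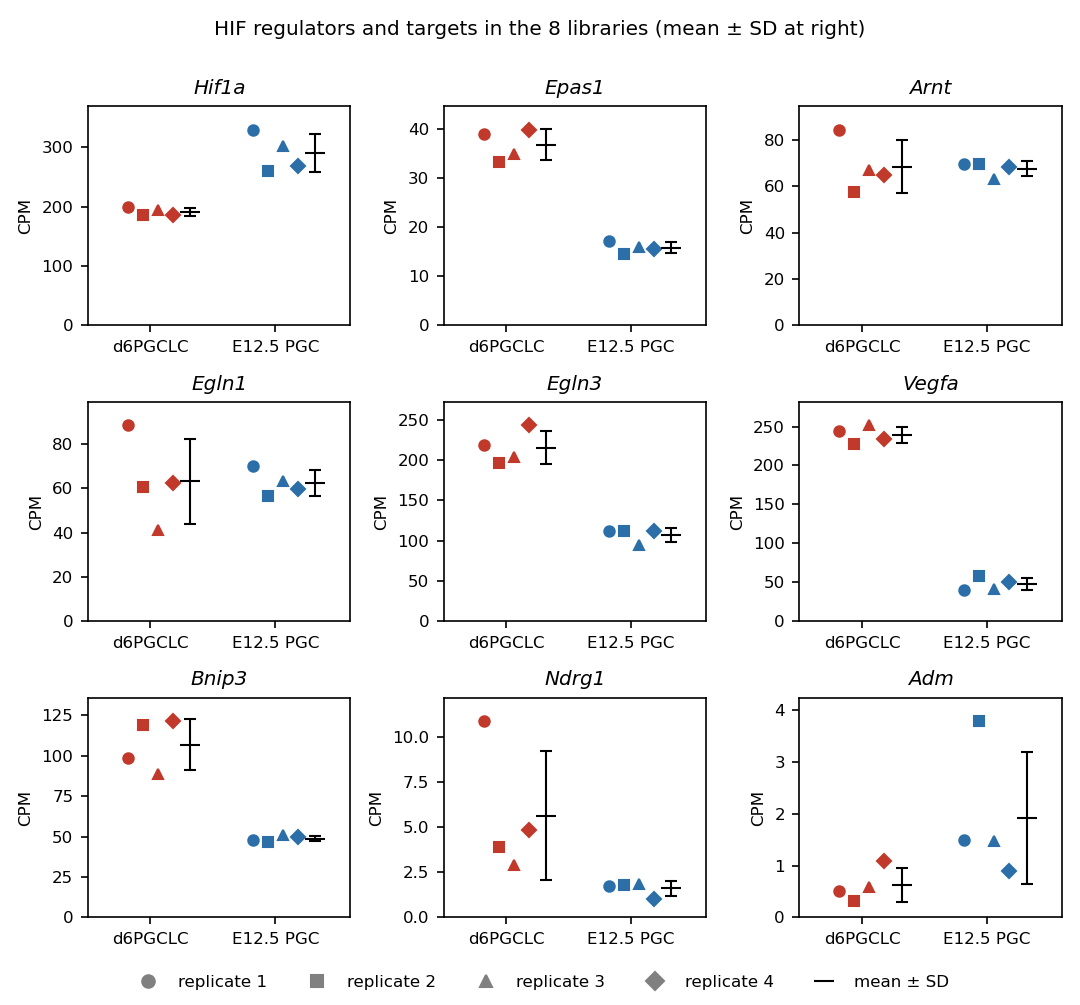
Level (CPM, vertical axes from 0 and different in each panel) of the 9 counted HIF regulators and targets in 4 d6PGCLC libraries (red) and 4 E12.5 PGC libraries (blue), with 1 symbol per replicate number and the mean ± SD beside each group. *Vegfa*, *Egln3*, *Bnip3*, *Epas1* and *Ndrg1* lay higher in every d6PGCLC library and *Hif1a* lower, whereas *Arnt*, *Egln1* and *Adm* overlapped.

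A gene was called when its p from the quasi-likelihood test of edgeR, adjusted by Benjamini-Hochberg over the whole table, did not exceed 0.05. Of the 9 counted genes, 5 were past this threshold with a higher level in d6PGCLCs (*Epas1*, *Egln3*, *Vegfa*, *Bnip3*, *Ndrg1*), where 16.1% of all genes were, and 2 with a lower level (*Hif1a*, *Adm*), where 15.4% of all genes were. Without E12.5 PGC replicate 2, 5 were called higher and 1 lower. The groups did not overlap for 6 of the 9, against 30.2% of all genes. Well-counted genes are called more often. Of all genes that averaged 100 counts or more, 28.3% were called higher, 25.8% lower, and 51.8% did not overlap, and of the 7 such genes among the 9, 4 were higher, 1 was lower and 5 did not overlap. With the study's further requirement that the log2 fold change reach 2 in size, 3.24% of all genes were higher and 3.37% lower, and *Vegfa* alone of the 9 was past it. The median log2 fold change of the 9 was 1.00, against 0.00 over all genes. Since the genes were selected on this contrast, nothing is read from these counts.

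Ordered by RPKM in d6PGCLCs, *Vegfa* (81.7 ± 3.49) and *Egln3* (74.9 ± 7.12) came first with overlapping libraries, followed by *Bnip3* (53.6 ± 7.92) and *Hif1a* (35.7 ± 1.26). *Egln1* (17.0 ± 5.19) and *Arnt* (14.1 ± 2.35) overlapped one another, *Epas1* was at 6.13 ± 0.526, and *Ndrg1* (1.23 ± 0.783) and *Adm* (0.404 ± 0.217) overlapped at the bottom. In E12.5 PGCs *Hif1a* was first at 54.2 ± 5.95 RPKM, followed by *Egln3* (37.4 ± 3.00) and *Bnip3* (24.4 ± 0.867). *Vegfa* (16.4 ± 2.81) stood between *Egln1* (16.8 ± 1.59) and *Arnt* (14.0 ± 0.639) and overlapped both. *Epas1* (2.64 ± 0.185) and *Adm* (1.24 ± 0.830) overlapped by the single PGC library with the most *Adm*, and *Ndrg1* was last at 0.349 ± 0.0880 RPKM. The position of a gene depends on the isoform that was counted, since 1 isoform was chosen at random for each gene.

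The genes that act around HIF, listed by role, did not move together. Of 16 such genes 5 were called higher and 4 lower, beside 16.1% and 15.4% of all genes, and 10 of the 16 averaged 100 counts or more, where these shares were 28.3% and 25.8%. Nothing is read from counts so near the shares of well-counted genes, and the median over the list was 0.02 on the log2 scale. *Hif3a*, which encodes an alpha subunit known mainly as a modulator of the other 2, was higher at 2.34 to 4.59 against 0.374 to 0.645 CPM (log2 fold change 2.46, standard error 0.40, adjusted p = 2.1e-05), although its counts in the PGC libraries were only 3, 6, 7 and 6 and the counted isoform had 1138 bases, against 6402 for the longest GENCODE M21 transcript. *P4htm*, a membrane-bound prolyl hydroxylase related to the EGLN enzymes, was higher at 1.42 ± 0.353 against 0.391 ± 0.380 CPM (adjusted p = 0.00852). Its counts were low, at 13, 13, 21 and 8 in d6PGCLCs and 2, 9, 3 and 1 in PGCs. The log2 fold change was 1.87, and 2.76 without E12.5 PGC replicate 2, which held the 9 counts. *Cited2*, whose product competes with HIF for the coactivators CBP and p300, rose to between 11.5 and 14.7 CPM from between 5.07 and 8.42 CPM (adjusted p = 0.000707), and *Os9*, whose product has been described to bind HIF-1α and its hydroxylases, to 32.2 ± 6.64 from 19.2 ± 0.931 CPM (adjusted p = 0.000467). *Cul2*, a scaffold subunit of the VHL ligase, was higher by 0.26 on the log2 scale (adjusted p = 0.0448), a call that was lost under 11 of 18 other settings.

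On the lower side, *Siah2*, a ubiquitin ligase that targets prolyl hydroxylases for degradation, changed most. It fell to 11.9 ± 4.67 CPM in d6PGCLCs from 33.7 ± 3.38 CPM in PGCs (log2 fold change -1.52, standard error 0.20, adjusted p = 3e-06). *Egln2*, encoding PHD1, was lower at 47.8 ± 1.54 against 69.1 ± 3.78 CPM (log2 fold change -0.53, adjusted p = 0.000269), so that of the 3 EGLN prolyl hydroxylases one was called higher, one lower and one did not pass. *Crebbp*, encoding the coactivator CBP, was lower at 36.2 ± 4.53 against 55.2 ± 10.5 CPM (adjusted p = 0.00155). Its groups overlapped, and the counted isoform had 3286 bases, against 10820 for the longest GENCODE M21 transcript. *Rbx1*, the RING subunit of the VHL ligase, had a log2 fold change of -0.44 (adjusted p = 0.0135), a call that was lost without E12.5 PGC replicate 4.

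The other 7 genes of this list did not pass the threshold. *Vhl*, the substrate receptor of the ligase, was at 26.9 ± 2.90 and 25.0 ± 3.04 CPM with an interval of the log2 fold change from -0.17 to 0.38. Its elongin partners *Elob* and *Eloc* had log2 fold changes of -0.07 and 0.25, and that of *Eloc* was 0.09 without d6PGCLC replicate 2 and 0.41, past the threshold, without d6PGCLC replicate 1. *Hif1an*, which encodes the asparaginyl hydroxylase of HIF (FIH), was at 8.06 ± 0.295 and 8.35 ± 1.10 CPM with an interval from -0.41 to 0.31. *Ep300* and *Cited4* had log2 fold changes of -0.19 and -0.28. The counted isoforms of *Hif1an* and *Ep300* had 944 and 2771 bases, against 6194 and 9566 for their longest GENCODE M21 transcripts. *Arnt2*, a paralog of *Arnt*, was at 7.14 ± 4.01 and 4.08 ± 1.79 CPM (log2 fold change 0.82, adjusted p = 0.0663). It passed under 4 of 18 other settings, among them without d6PGCLC replicate 1 (1.03) and without E12.5 PGC replicate 1 (1.13), and was at 0.40 without d6PGCLC replicate 4.

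**Figure D3:**
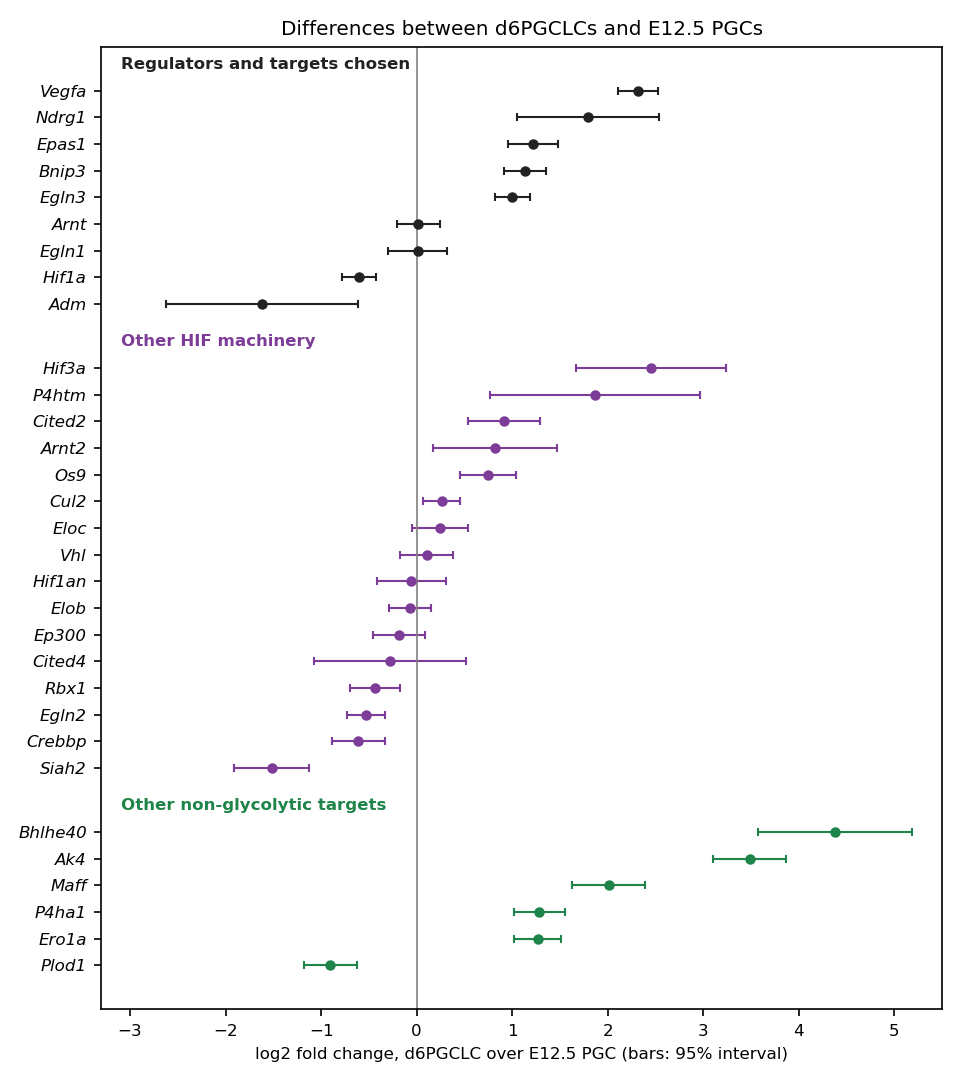
Log2 fold change, d6PGCLC over E12.5 PGC (horizontal axis), of the 9 counted HIF regulators and targets, 16 other genes of the HIF machinery and 6 other non-glycolytic targets, with 95% intervals as bars. *Vegfa* at 2.32 is the largest of the first group, and the HIF machinery spreads on both sides of 0 from *Hif3a* (2.46) to *Siah2* (-1.52).

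Of 42 other known hypoxia targets outside glycolysis 40 were in the table, of which 19 were called higher, 3 lower and 18 did not pass, beside the 16.1% and 15.4% of all genes. Their median log2 fold change was 0.52. Of the 24 that averaged 100 counts or more, 15 were higher and 1 was lower, beside 28.3% and 25.8% of all genes so counted. The list holds genes for which hypoxia is only 1 of several inputs, and 5 of the 40 had at most 3 counts in every library. Among these 24 the differences were largest for *Bhlhe40*, which encodes a transcriptional repressor, and *Ak4*, a mitochondrial adenylate kinase. *Bhlhe40* stood at 27.5 to 162.0 CPM in d6PGCLCs and 2.98 to 4.84 CPM in PGCs (log2 fold change 4.38, standard error 0.41, adjusted p = 2.27e-08). *Ak4* was at 94.9 ± 22.5 and 8.58 ± 3.05 CPM (log2 fold change 3.49, standard error 0.19, adjusted p = 1.74e-11).

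*Maff*, a small MAF transcription factor, followed with 35.6 ± 7.38 against 8.86 ± 2.70 CPM (adjusted p = 4.99e-08). *P4ha1*, a collagen prolyl hydroxylase subunit, was at 114.7 ± 27.6 and 47.0 ± 3.78 CPM (adjusted p = 1.88e-07), and *Ero1a*, an oxidoreductase of protein folding in the endoplasmic reticulum, at 285.2 ± 65.3 and 118.4 ± 6.02 CPM (adjusted p = 7.67e-08). The only such gene called lower was *Plod1*, a collagen lysyl hydroxylase, at 17.1 ± 1.51 against 32.0 ± 3.75 CPM (log2 fold change -0.90, adjusted p = 2.55e-05). *P4ha1* and *Plod1*, both among the collagen-modifying enzymes of the list, thus went opposite ways. *P4ha2*, a paralog of *P4ha1*, had a log2 fold change of -0.06 that did not pass. The others called higher were *Car12*, *Kdm4b*, *Kdm4c*, *Loxl2*, *Ddit4*, *Stc2*, *Hmox1*, *Tfrc*, *Pgf*, *Flt1*, *Narf*, *Wsb1*, *Hilpda* and *Cxcr4*, and the others called lower were *Angptl4* and *Lox*. *Lox* had 0 counts in every d6PGCLC library and 1, 2, 2 and 2 in the PGC libraries, so that it was within the limit of 3 counts in all 8 and its call rests on 7 reads. Among those called higher, *Loxl2*, *Hmox1* and *Cxcr4* overlapped between the groups. *Loxl2* was scarce, with counts of 1, 11, 14 and 26 in d6PGCLCs and 4, 4, 6 and 1 in PGCs. So was *Pgf*, with 10, 9, 14 and 18 in d6PGCLCs and 4, 5, 5 and 3 in PGCs. Counts of *Stc2* were 66, 78, 32 and 22 in d6PGCLCs and 7, 7, 5 and 1 in PGCs.

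Several well-known targets were among those that did not pass. *Car9*, a carbonic anhydrase, had a mean of 1.38 counts over the 8 libraries, and *Epo* and *Stc1* had still fewer, with no library of the 3 genes above 3 counts. *Kdm3a*, a histone demethylase gene, was well counted at 318.7 ± 38.3 and 285.9 ± 18.7 CPM (log2 fold change 0.16), and *Lonp1*, a mitochondrial protease gene, at 386.4 ± 21.4 and 388.6 ± 21.2 CPM (log2 fold change -0.01). By contrast, all 19 counted genes of glycolysis and pyruvate entry were called higher, beside 16.1% of all genes and 28.3% of those averaging 100 counts or more, and their median log2 fold change was 1.64.

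**Figure D4:**
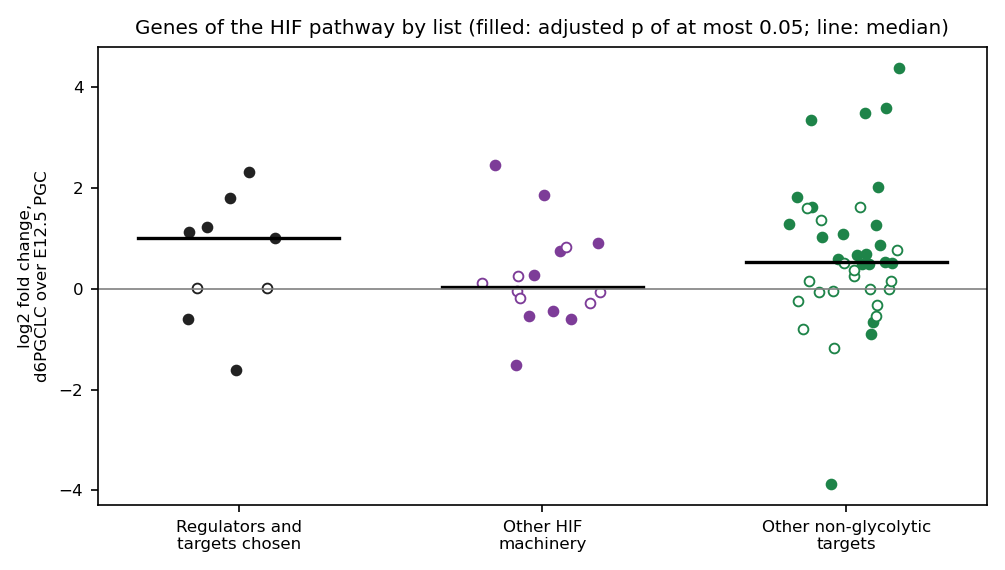
Log2 fold change, d6PGCLC over E12.5 PGC (vertical axis), of each gene in 3 lists of the HIF pathway, with genes past an adjusted p of 0.05 filled and the median as a line. The medians are 1.00 for the 9 genes chosen, 0.02 for 16 other genes of the HIF machinery and 0.52 for 40 other non-glycolytic targets, whose lowest point is *Lox*, with at most 2 counts in any library.

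The libraries of a group did not rank alike across these genes. Of the 7 well-counted genes chosen here, d6PGCLC replicates 1 and 4 each held the highest level of the group for 3, replicate 3 for 1, and replicate 2 held the lowest level for 4. Of 24 other non-glycolytic targets that averaged 100 counts or more, 11 were highest in replicate 1 and 10 in replicate 4. Of all genes so counted, 34.2% were highest in replicate 1, 21.1% in replicate 3 and 17.8% in replicate 4, and 23.7% were lowest in replicate 2. Of 17 glycolysis genes so counted, 11 were highest in replicate 1 and 14 lowest in replicate 3, where 34.2% and 20.2% of all genes so counted were highest and lowest in these libraries. Replicate 3, lowest for these 14, held the highest level of *Vegfa*. Some of the levels carry a limit from overlapping annotation. In GENCODE M21, exons on the opposite strand overlap *Hif1a*, *Bnip3*, *Ndrg1*, *Arnt2*, *Egln2*, *Elob* and *Bhlhe40*, and whether the counting used strand is not stated, so reads of the 2 strands may be mixed in these counts.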

How the data were processed

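Per the paper's methods and the labels, the authors used STAR to place single-end reads on GRCm38 (mm10) plus ERCC sequences. They picked 1 isoform per gene at random, thinned genes with overlapping promoters likewise, and deposited unnormalized counts, made from uniquely mapped reads. Near-identical copies of a gene thereby lose reads, and whether the counting used strand is not given in the sources used here.

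Of 21950 Entrez identifiers, 21907 matched a RefSeq symbol. Counts were fitted with edgeR 4.0.16 in R 4.3.3 (TMM, quasi-likelihood fit and test, prior count 0.125) on cell type alone and without a filter, where the study used edgeR's likelihood ratio test. Standard errors come from the information of the fit and the quasi-likelihood variance, and 95% intervals are 1.96 standard errors to either side. CPM use TMM-scaled library sizes. RPKM also divide by the deposited exonic length. Libraries of a group differed by more than sampling noise (3.35 to 22.1 chi-square units per degree of freedom), and same-numbered libraries were not treated as paired. Pools came from independent experiments. The depth of 7991437 to 12024841 counted reads limits precision for genes with few counts.

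The genes, the lists around them and the tests were chosen with earlier results of these data known. Adjusted p-values given for genes of the lists are therefore descriptive as well. All 10 genes and all 16 of the HIF machinery are named. Of the other targets, up to 5 called genes per direction, by size of the difference, are given with values if they averaged 100 counts or more, and *Flt1*, *Kdr*, *Bnip3l*, *P4ha2*, *Car9*, *Epo*, *Stc1*, *Kdm3a* and *Lonp1* were added after their values were seen. Alternatives were DESeq2 1.42.0, the likelihood ratio test, other scalings, filters, prior count and thresholds, a replicate block, a length offset and leaving out each library. Protein sequences were not used here. The fit was tested on simulated counts.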

Additional observations from a re-analysis of the deposited data

Results flagged for a closer look

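In 3 of 62 groups of 4 libraries, 1 library lay farther from the other 3 than Dixon's criterion allows, where chance at 1 in 20 gives 3.1. *Egln3* was at 94.5 CPM in E12.5 PGC replicate 3 and at 111.5 to 111.9 CPM in the other PGC libraries. *Ndrg1* was at 0.993 CPM in E12.5 PGC replicate 4 and at 1.75 to 1.84 CPM in the others. *Rbx1* was at 46.3 CPM in d6PGCLC replicate 1 and at 76.6 to 78.2 CPM in the other d6PGCLC libraries.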

How the results depend on the processing

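Across 557 single-gene values of 31 genes under the alternatives, 538 kept their side of the threshold, 14 lost the call, 5 gained it and 0 called values reversed. *Arnt* and *Egln1*, not called, moved to both sides of 0 (-0.10 to 0.08 and -0.19 to 0.17 when single libraries were left out). The median log2 fold change of the 9 counted genes ranged from 0.92 to 1.04. When single libraries were left out, 5 of the 9 were always called higher and 1 to 2 lower, 4 to 7 of the HIF machinery were called higher and 3 to 4 lower, 15 to 19 of the other targets higher and 1 to 3 lower (1 without E12.5 PGC replicate 4), and over all genes 3093 to 3636 higher and 2885 to 3430 lower. An adjusted p of at most 0.01 left 1 of the 9 lower and 1 other target lower. With a log2 fold change of 1 or more in size required, 1 of the 9 was lower, the machinery had 2 higher and 1 lower, the other targets 11 and 1, and all genes 1756 and 1481. With 2 required, the 9 had 1 higher and 0 lower, the machinery 1 and 0, the other targets 5 and 1 (*Lox*, with at most 2 counts in a library), and all genes 712 and 740. Libraries with the same number were not treated as paired, and whether they shared an experiment is not stated. The correlations of their deviations were 0.39, 0.16, -0.09 and 0.08, against -0.28 to 0.23 for libraries with different numbers. A replicate block gave 5 other targets lower, as did the length offset, and changed no other count by over 1.5 times. Scaling moved the share of higher genes among those called from 51.0% to as low as 46.0% (length offset). ACGTG alone was in 6 of 9 windows, against 8 with either word. Depth limited *Adm* and *Ndrg1*, with means of 12.1 and 32.5 counts.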
